A study of Mus musculus with 12 samples.

Results

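The genes described here are 28 mouse genes of GABA signalling, comprising GABA receptor subunits, enzymes and transporters that make, load, take up or break down GABA, scaffold proteins of the inhibitory synapse, and markers of interneurons. They were listed by symbol with earlier results of these data known, and all 28 were found among the 35697 genes listed for the 2018 batch and the 55637 listed for the 2022 batch. GABA is the main inhibitory transmitter of the adult brain. It is made from glutamate by glutamate decarboxylases, loaded into vesicles, released, and removed by transporters on neurons and astrocytes. It acts on GABA-A receptors, which are chloride channels built of 5 subunits, and on GABA-B receptors, which act through G proteins, and in the cortex it comes mainly from interneurons whose subclasses are told apart by peptides and calcium-binding proteins.

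RNA was sequenced from brain tissue of adult male wild-type C57BL/6J mice in 4 groups of 3 libraries, and the study's text counts 3 mice per group. In the 2018 batch, mice with a controlled cortical impact (CCI), a model of traumatic brain injury (TBI) in which a piston strikes the exposed cortex, were set against sham mice that had the surgery without the impact, at 7 days. In the 2022 batch, TBI mice given zileuton, an inhibitor of 5-lipoxygenase, by intraperitoneal injection at 10 mg/kg each day in corn oil, were set against mice labelled only as TBI, which the study's text describes as the vehicle group. For the zileuton mice the library names all state 7 days, but the source labels state 7, 8 and 9. The labels call the tissue brain, and the study's text places it around the contusion, so that it can hold cortex together with underlying structures. The batches were sequenced and counted apart and were never compared. Nothing states whether material was pooled, and p-values measure the spread between these libraries. The zileuton libraries and their TBI controls are named A, B and C.

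Library totals were 42929862 to 48684674 counts in 2018 and 27845562 to 35453257 in 2022. The lowest count of any of the 28 genes in a library was 439 in 2018 and 181 in 2022, both for Calb2, for which counting alone gives an error of 4.77% and 7.43%. The label check held in that Gfap, an astrocyte filament gene, and Cd68, a lysosomal gene of phagocytes, were higher after TBI by 3.72 and 3.62 on the log2 scale. Markers of microglia and macrophages rose in 9 of 9 cases and those of astrocytes in 6 of 8, while 8 of 12 pan-neuronal genes fell. The summed FPKM (fragments per kilobase of transcript, scaled to library size) of the 12 pan-neuronal genes was 1824 to 1917 in sham libraries and 1371 to 1601 in TBI libraries. In bulk tissue, fewer cells of a type and less RNA per cell cannot be told apart, and this holds for every difference given here.

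After TBI, 13 of the 28 genes fell and 1 rose at an adjusted p-value under 0.05 (edgeR quasi-likelihood test, Benjamini-Hochberg adjustment over all 19536 genes tested). Among all genes tested, 11.2% fell and 16.8% rose. The 13 were the receptor subunits Gabra3, Gabra4, Gabrb2, Gabbr1 and Gabbr2, the synapse organiser Nlgn2, the peptides Sst, Vip and Npy, and the interneuron genes Calb1, Reln, Lhx6 and Erbb4, and the 1 that rose was Calb2. Most of the changes were modest, and Calb2 was the 1 gene that differed at least 2-fold. The fitted value was below 0 for 25 of the 28. The median on the log2 scale was -0.32 for the 28, -0.36 for the 12 pan-neuronal genes and 0.02 for the 19536. In CPM (counts per 1000000, scaled by TMM factors) and in FPKM alike, sham and TBI libraries did not overlap for 13 genes that were lower and 2 that were higher, where in CPM 19.8% and 24.6% of all genes tested lay apart in these directions. None of the 5 genes of GABA synthesis, loading, uptake and breakdown passed the adjusted threshold, where 11.2% of all genes tested fell and 16.8% rose. With zileuton, 0 of the 28 passed it.

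**Figure D1:**
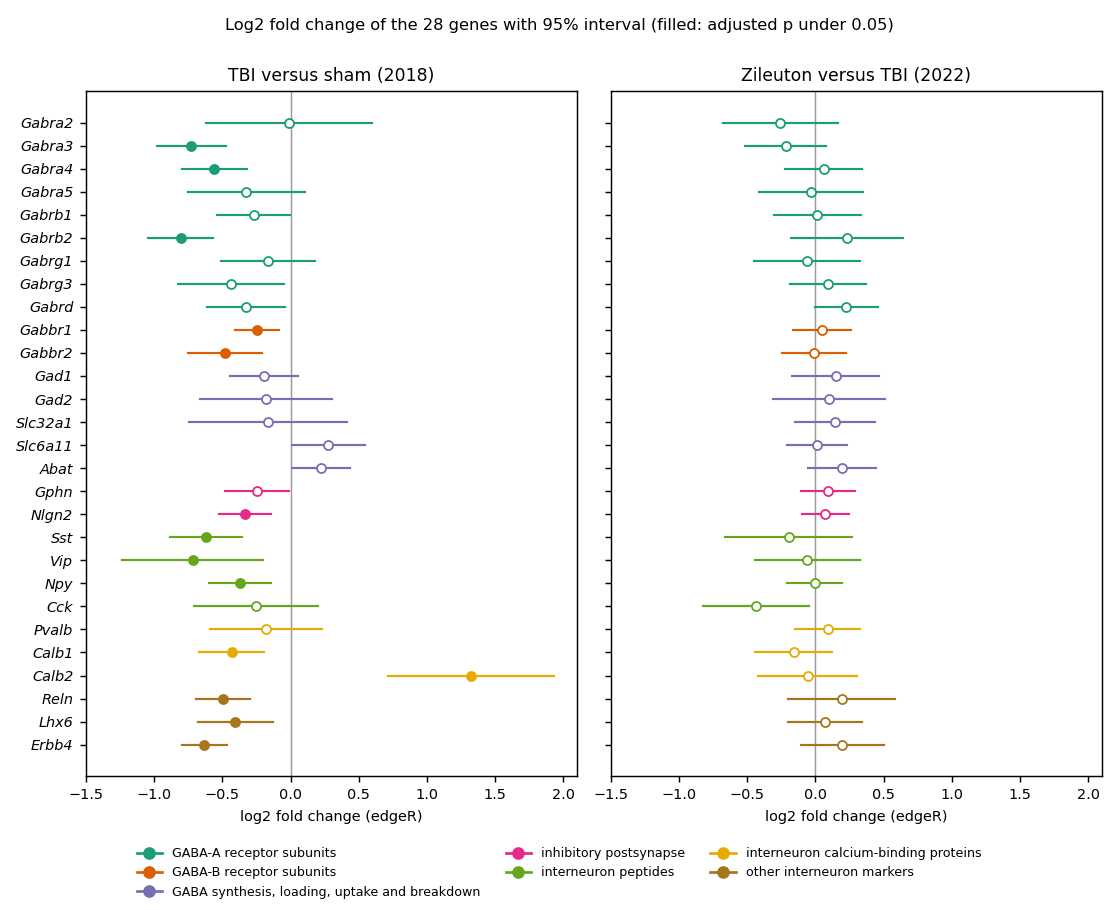
Log2 fold change of the 28 genes on the horizontal axis for TBI versus sham and for zileuton versus TBI, with 95% confidence intervals, coloured by class; filled points have an adjusted p-value under 0.05. In the first comparison 13 filled points lie left of 0 and 1, Calb2, lies right of it, whereas the second has 0 filled points.

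Sequences upstream of the transcription start are shown first for the 3 interneuron peptide genes that fell together, because peptide genes of this kind are known for cAMP response elements close to their starts. The 250 bases before the start are given 5′ to 3′ on the gene's strand, from RefSeq on GRCm38.p6, a build other than the GRCm39 named in the submitters' processing notes. Capitals mark the full element TGACGTCA or, where it is absent, its 5-base form TGACG, both searched on either strand, and each TGACGTCA also holds TGACG. Sst lies at chr16:23890845-23891094 on the minus strand, Vip at chr10:5638968-5639217 on the plus strand and Npy at chr6:49822460-49822709 on the plus strand.
Sst: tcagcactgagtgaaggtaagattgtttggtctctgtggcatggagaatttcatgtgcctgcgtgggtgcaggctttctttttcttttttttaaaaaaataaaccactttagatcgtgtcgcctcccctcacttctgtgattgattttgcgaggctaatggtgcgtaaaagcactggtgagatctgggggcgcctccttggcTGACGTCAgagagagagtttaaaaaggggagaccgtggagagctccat
Vip: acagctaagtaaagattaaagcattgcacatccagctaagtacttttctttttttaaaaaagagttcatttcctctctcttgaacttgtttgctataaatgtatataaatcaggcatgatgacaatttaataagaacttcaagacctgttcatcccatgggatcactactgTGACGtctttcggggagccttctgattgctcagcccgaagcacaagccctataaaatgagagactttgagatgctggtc
Npy: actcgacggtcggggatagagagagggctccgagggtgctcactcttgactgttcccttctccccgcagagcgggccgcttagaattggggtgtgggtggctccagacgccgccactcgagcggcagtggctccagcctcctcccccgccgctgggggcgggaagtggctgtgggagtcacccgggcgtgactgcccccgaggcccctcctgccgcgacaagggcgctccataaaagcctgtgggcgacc
The Sst window held the full element with its first base at -48 from the start, the Vip window held the 5-base form at -79, and the Npy window held neither. Of the 28 genes, 24 had an entry, with 31 promoters, and Abat, Gabrd, Calb1 and Calb2 had none. The full element was present in 1 of the 24 genes, Sst, and in 1.55% of all promoter windows of this length. The 5-base form was present in Sst, Vip, Gad2 and Cck, in 12.9% of the 31 windows against 17.8% of all windows. Sst and Vip fell, Gad2 and Cck did not pass the test, and Npy fell without a match.

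The GABA-A receptor is a pentamer of alpha, beta and further subunits around a chloride pore, and the subunits decide where the receptor sits and which drugs it binds. Of the 9 subunit genes, Gabra3, Gabra4 and Gabrb2 fell and 0 rose, where 11.2% of all genes tested fell and 16.8% rose. All 9 had fitted values below 0, with a median log2 fold change of -0.33. Gabrb2 (ENSMUSG00000007653), a beta subunit that carries part of the GABA binding site, measured 32.9, 27.8 and 29.3 FPKM in sham libraries and 20.0, 17.7 and 15.8 FPKM in TBI libraries. All 3 TBI libraries lay below all 3 sham libraries. The log2 fold change was -0.81 with a standard error (SE) of 0.105 and an adjusted p-value of 0.000689 in edgeR, and the level fell by 42.8%. Gabra3 (ENSMUSG00000031343), an alpha subunit, measured 41.6, 39.6 and 39.1 FPKM in sham libraries and 23.7, 22.2 and 29.4 FPKM in TBI libraries. The groups did not overlap, and TBI library 3 lay nearest to the sham libraries. Its log2 fold change was -0.73 (SE 0.113, adjusted p = 0.00179, edgeR). Gabra4, an alpha subunit often found in receptors outside the synapse, measured 23.6, 22.6 and 25.9 FPKM in sham libraries and 16.0, 20.0 and 14.8 FPKM in TBI libraries. These groups also lay apart, with TBI library 2 the highest of its group. The log2 fold change was -0.56 (SE 0.106, adjusted p = 0.00498, edgeR). The sources used here do not state whether strand was used in counting, and in GENCODE release M21 exons of 6 of the 28 genes overlap those of a gene on the opposite strand. Slc32a1 shares 697 bases with Gm14205, Reln 246 with Gm10475, Gabra5 148 with Gm9962, Gphn 147 with Gm48226, and Gabra4 and Gabrb1 46 with each other. Reads of such partners cannot be told apart without strand.

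The other 6 GABA-A subunit genes did not pass the adjusted threshold. Gabrg3, a gamma subunit, had a log2 fold change of -0.43 (adjusted p = 0.0921, edgeR) at a low level of 3.08 ± 0.531 FPKM in sham and 2.37 ± 0.551 FPKM in TBI libraries (SD, n = 3). Gabrd, the delta subunit of receptors outside the synapse, had -0.33 (adjusted p = 0.0837, edgeR), and its libraries overlapped because TBI library 2, at 22.8 FPKM, lay above sham library 1, at 19.9 FPKM. Gabra5, an alpha subunit abundant in the hippocampus, measured 21.9, 18.3 and 18.9 FPKM in sham libraries and 21.7, 12.4 and 14.8 FPKM in TBI libraries. TBI library 1 sat among the sham libraries, and the log2 fold change was -0.32 (SE 0.190, adjusted p = 0.243, edgeR). Without that library it was -0.59 (adjusted p = 0.0115, edgeR). Gabra5 passed in 1 of the 6 fits that left out 1 library, with adjusted p-values up to 0.547 (edgeR). Gabrb1, a beta subunit, and Gabrg1, a gamma subunit found in glia as well as neurons, had log2 fold changes of -0.27 and -0.17. Gabra2, an alpha subunit found at many synapses, measured 11.6, 16.6 and 6.68 FPKM in the sham libraries and 13.2, 10.6 and 11.9 FPKM in the TBI libraries. The spread among sham libraries enclosed all 3 TBI libraries, and the 95% interval of its log2 fold change, from -0.62 to 0.59, left a change of either sign possible.

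The 9 subunit genes summed to 170.9, 165.3 and 162.4 FPKM in sham libraries and 126.3, 122.5 and 118.0 FPKM in TBI libraries. All 3 TBI sums lay below all 3 sham sums. Gabrb2 made up 18.1 ± 1.21% of the sum in sham and 14.6 ± 1.25% in TBI libraries (SD, n = 3), and it was the 1 subunit of 9 whose share did not overlap between the groups. Gabra3 had 24.1 ± 0.21% in sham and 20.6 ± 3.74% in TBI libraries, with TBI library 3 at 24.9%, above every sham library. Gabrd had 14.2 ± 2.32% and 15.9 ± 2.49%, with overlap. Shares are parts of a sum over these 9 genes alone, were not tested, and a higher share of 1 subunit need not mean a higher level.

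**Figure D2:**
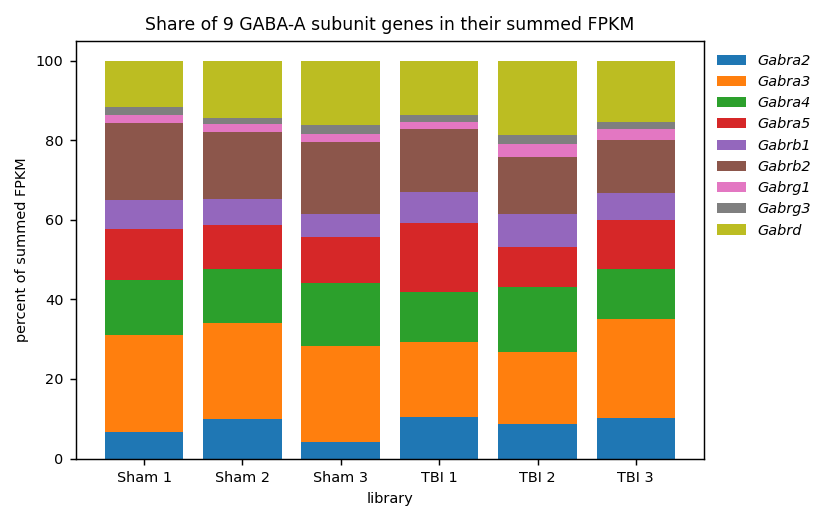
Stacked bars give, for each sham and TBI library of 2018 on the horizontal axis, the percent that each of 9 GABA-A subunit genes took of their summed FPKM. The Gabrb2 band is narrower in all 3 TBI libraries, 14.6 ± 1.25% on average against 18.1 ± 1.21% in sham.

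Both genes of the GABA-B receptor, which works as a pair of its 2 subunits and dampens transmitter release and neuronal firing, fell after TBI. Of all genes tested, 11.2% fell. Gabbr1, the subunit that binds GABA, measured 105.8, 104.9 and 112.0 FPKM in sham libraries and 94.6, 96.7 and 91.3 FPKM in TBI libraries. The groups did not overlap, though the log2 fold change was small at -0.24 (SE 0.0708, adjusted p = 0.0322, edgeR). Gabbr2, the subunit that couples to the G protein, measured 49.5, 48.0 and 49.2 FPKM in sham libraries and 43.1, 31.1 and 34.5 FPKM in TBI libraries. TBI library 1 lay nearest to the tightly grouped sham libraries, and the log2 fold change was -0.48 (SE 0.119, adjusted p = 0.0167, edgeR). Gabbr1 kept an adjusted p-value under 0.05 in 1 of the 6 fits that each left out 1 library, and Gabbr2 in 5 of 6, the exception being the fit without sham library 1 (adjusted p = 0.0520, edgeR).

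Downstream and beside these receptors, 5 of 6 listed GABA-B effector and auxiliary genes passed the test, 4 lower and 1 higher, where 11.2% of all genes tested fell and 16.8% rose. Kcnj3, a subunit of the potassium channel that GABA-B receptors open, fell with a log2 fold change of -0.78, and Kctd16, an auxiliary subunit of the receptor, fell with -0.65 (adjusted p = 0.000847 and 0.00454, edgeR). Kctd12, another auxiliary subunit of the same family, rose by 0.98 on the log2 scale (adjusted p = 4.4e-05, edgeR). The auxiliary subunits thus went in different directions while both receptor genes fell.

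The genes that make, load and clear GABA did not pass the adjusted threshold in either direction. Gad1 and Gad2, the glutamate decarboxylases, had log2 fold changes of -0.20 (SE 0.109, adjusted p = 0.223) and -0.18 (SE 0.212, adjusted p = 0.574) in edgeR. Gad1 measured 38.8, 42.8 and 48.6 FPKM in sham libraries and 35.5, 45.4 and 37.1 FPKM in TBI libraries. TBI library 2 lay among the sham libraries while TBI libraries 1 and 3 lay below all of them. Gad2 measured 30.1, 28.02 and 32.6 FPKM in sham libraries and 22.1, 40.3 and 21.0 FPKM in TBI libraries. The highest and the lowest of the 6 values both belonged to TBI libraries. Slc32a1, the transporter that loads GABA into vesicles, measured 24.5, 25.0 and 34.9 FPKM in sham libraries and 18.3, 38.9 and 21.2 FPKM in TBI libraries, and its log2 fold change was -0.16 (SE 0.255, adjusted p = 0.680, edgeR). It showed the same arrangement, with TBI library 2 highest and the other TBI libraries below every sham library.

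TBI library 2 also stood apart in markers of the striatum, a region whose projection neurons themselves use GABA. The summed FPKM of 7 striatal genes was 227, 222 and 428 in sham libraries and 139, 536 and 157 in TBI libraries, so that sham library 3 and TBI library 2 were the highest of their groups. Every striatal gene listed was detected, and 0 of 7 passed the test. Across the 6 libraries Gad2 and Slc32a1 were highest in the library with the highest striatal sum and next highest in the library with the next highest sum. Without TBI library 2, Gad2 had a log2 fold change of -0.53 (adjusted p = 0.00322, edgeR) and Slc32a1 one of -0.55 (adjusted p = 0.0382, edgeR). Each passed in 1 of the 6 fits that left out 1 library. Adjusted p-values in these fits ran up to 0.950 for Gad2 and 0.996 for Slc32a1 (edgeR). Without sham library 3 and TBI library 2 together, a setting added after the values were seen, Gad2 had -0.47 (adjusted p = 0.0148, edgeR). Slc32a1 had -0.36 there and did not pass (adjusted p = 0.0618, edgeR). In that setting 8 of the 28 genes and 975 of all genes tested fell, against 2193 of all with every library kept. Because TBI library 2 itself held the highest Gad2 and Slc32a1 values, leaving it out lowers both fold changes. These fits are therefore no test of striatal tissue, and its part in the values was not tested. Markers of the choroid plexus varied between libraries too, with summed FPKM of 842, 11.3 and 40.9 in sham and 1004, 1117 and 929 in TBI libraries. All TBI sums lay above all sham sums, though 0 of the 5 genes passed the test. Their part was not tested.

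**Figure D3:**
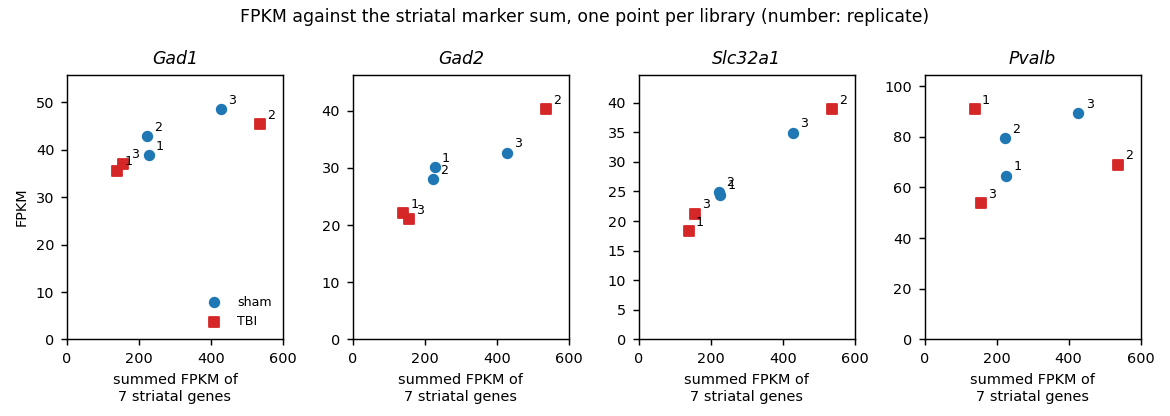
FPKM of Gad1, Gad2, Slc32a1 and Pvalb (vertical axes) in each sham and TBI library of 2018 against the summed FPKM of 7 striatal genes (horizontal axis), with the replicate number beside each point. TBI library 2, with the highest striatal sum of 536, has the highest Gad2 (40.3) and Slc32a1 (38.9), whereas the highest Pvalb value (91.0) is that of TBI library 1, with the lowest sum of 139.

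Genes of GABA uptake and breakdown had fitted values on the other side of 0. Abat, the transaminase that breaks down GABA and is found in astrocytes and neurons, measured 36.4, 37.6 and 38.7 FPKM in sham libraries and 44.7, 52.3 and 39.7 FPKM in TBI libraries. The groups did not overlap, with TBI library 3 just above the sham libraries, and the log2 fold change of 0.22 did not pass the threshold (SE 0.0948, adjusted p = 0.112, edgeR). Without TBI library 3 it was 0.31 (adjusted p = 0.0361, edgeR). Abat passed in 1 of the 6 fits that left out 1 library, with adjusted p-values up to 0.288 (edgeR). Slc6a11, a GABA transporter found mainly on astrocytes, measured 25.5, 27.7 and 27.4 FPKM in sham libraries and 27.4, 39.5 and 34.5 FPKM in TBI libraries. TBI library 1 lay within the sham range, and the log2 fold change was 0.28 (SE 0.117, adjusted p = 0.111, edgeR). Without that library it was 0.40 (adjusted p = 0.00969, edgeR). Slc6a11 passed in 1 of the 6 fits that left out 1 library, with adjusted p-values up to 0.296 (edgeR). Of 2 tested genes among other GABA-A and GABA-A-rho subunits, 0 passed. The astrocyte markers summed to 680 to 794 FPKM in sham and 1450 to 1564 FPKM in TBI libraries, and their part in the values of Abat and Slc6a11 was not tested.

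At the inhibitory postsynapse, Nlgn2, an adhesion protein that organises the synapse, fell, and Gphn, the gephyrin scaffold that holds receptors in place, did not pass. Nlgn2 measured 47.8, 48.5 and 55.9 FPKM in sham libraries and 38.7, 44.0 and 42.4 FPKM in TBI libraries. The groups lay apart and the log2 fold change was -0.33 (SE 0.0854, adjusted p = 0.0189, edgeR). It passed in 4 of the 6 fits that left out 1 library, and had adjusted p-values of 0.0623 without sham library 3 and 0.0557 without TBI library 1 (edgeR). Gphn had a log2 fold change of -0.25 (SE 0.103, adjusted p = 0.109, edgeR). Its sham library 2 lay below 2 of the TBI libraries in FPKM, and below TBI library 1 alone in CPM. Of 12 further listed scaffold and trafficking genes, 4 fell and 1 rose, against the same 11.2% and 16.8% of all genes tested. The 1 that rose was Gabarap, known for receptor trafficking and for autophagy, with a log2 fold change of 0.58 (adjusted p = 0.000591, edgeR).

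The neuropeptides that mark interneuron subclasses gave 3 falls among 4 genes, where 11.2% of all genes tested fell. Sst, somatostatin, measured 286, 284 and 306 FPKM in sham libraries and 159, 214 and 218 FPKM in TBI libraries. Every TBI library was lower than every sham library, and the log2 fold change was -0.62 (SE 0.117, adjusted p = 0.00470, edgeR). Vip, vasoactive intestinal peptide, measured 13.3, 17.6 and 15.3 FPKM in sham libraries and 10.9, 6.13 and 12.0 FPKM in TBI libraries. The groups did not overlap but TBI library 2 was far below the other TBI libraries, and the log2 fold change was -0.72 with a wide SE of 0.229 (adjusted p = 0.0452, edgeR). Npy, neuropeptide Y, measured 147, 160 and 173 FPKM in sham libraries and 135, 114 and 136 FPKM in TBI libraries. The groups lay apart by a small margin, and the log2 fold change was -0.37 (SE 0.0994, adjusted p = 0.0232, edgeR). Cck, cholecystokinin, which pyramidal cells express too, had 300.7, 174.5 and 318.5 FPKM in TBI libraries and 312.3, 299.7 and 303.9 FPKM in sham libraries. In FPKM TBI library 2 alone lay below the sham libraries, whereas in CPM TBI library 1, at 388.3, did so too (lowest sham library 397.4). The log2 fold change of -0.25 did not pass (SE 0.201, adjusted p = 0.391, edgeR). Sst passed in all 6 fits that left out 1 library, Npy in 5 (adjusted p = 0.0700 without sham library 3, edgeR) and Vip in 2.

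The calcium-binding proteins went in different directions. Calb2 (ENSMUSG00000003657), calretinin, measured 5.45, 6.71 and 6.77 FPKM in sham libraries and 9.18, 21.0 and 19.0 FPKM in TBI libraries. All TBI libraries were higher than all sham libraries, and TBI library 1 was well below the other TBI libraries. The log2 fold change was 1.32 (SE 0.266, adjusted p = 0.00660, edgeR), a 2.50-fold higher level, the largest change in size among the 28 genes. Calretinin marks a subclass of interneurons and is also made by thalamic and other neurons. The 5 thalamic genes listed summed to 8.71, 10.7 and 10.8 FPKM in sham libraries and 15.3, 35.1 and 14.0 FPKM in TBI libraries, and 2 of them, Tcf7l2 and Prkcd, rose. Their part in the Calb2 values was not tested, and without TBI library 2, which had the highest thalamic sum, Calb2 had a log2 fold change of 1.12 (adjusted p = 0.0167, edgeR). With the equal-variance test on FPKM in place of edgeR, its adjusted p-value was 0.140. Calb1, calbindin, measured 26.9, 32.7 and 31.5 FPKM in sham libraries and 23.0, 26.7 and 20.4 FPKM in TBI libraries. The groups lay apart by a narrow margin, with TBI library 2 just under sham library 1, and the log2 fold change was -0.43 (SE 0.106, adjusted p = 0.0161, edgeR). It lost the call without sham library 2 (adjusted p = 0.0543, edgeR) and without sham library 3 (adjusted p = 0.0533, edgeR). Pvalb, parvalbumin, the marker of fast-spiking interneurons, measured 64.7, 79.5 and 89.4 FPKM in sham libraries and 91.0, 68.9 and 53.9 FPKM in TBI libraries. The highest and lowest FPKM were both in TBI libraries, whereas in CPM sham library 3 was the highest at 94.5. The log2 fold change was -0.18 with a 95% interval from -0.59 to 0.23 (adjusted p = 0.511, edgeR).

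All 3 of the remaining interneuron markers fell, where 11.2% of all genes tested did. Erbb4, the neuregulin receptor that is enriched in interneurons, measured 6.43, 7.12 and 6.61 FPKM in sham libraries and 4.60, 4.39 and 4.50 FPKM in TBI libraries. The TBI libraries were tightly grouped below the sham libraries, and the log2 fold change of -0.63 had the smallest adjusted p-value of the 28 genes (SE 0.0724, adjusted p = 0.000347, edgeR). Reln, reelin, a secreted protein of interneurons in the adult cortex, measured 2.63, 2.88 and 2.76 FPKM in sham libraries and 1.81, 2.24 and 2.05 FPKM in TBI libraries. The groups did not overlap, and the log2 fold change was -0.49 (SE 0.0873, adjusted p = 0.00352, edgeR). Lhx6, a transcription factor of interneurons that arise in the medial ganglionic eminence, measured 3.06, 3.65 and 3.05 FPKM in sham libraries and 2.54, 2.37 and 2.72 FPKM in TBI libraries. Its log2 fold change was -0.40 (SE 0.121, adjusted p = 0.0361, edgeR), and it passed in 1 of the 6 fits that left out 1 library. Lhx6 shares 104 exon bases with Gm27953 on the same strand in GENCODE release M21.

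**Figure D4:**
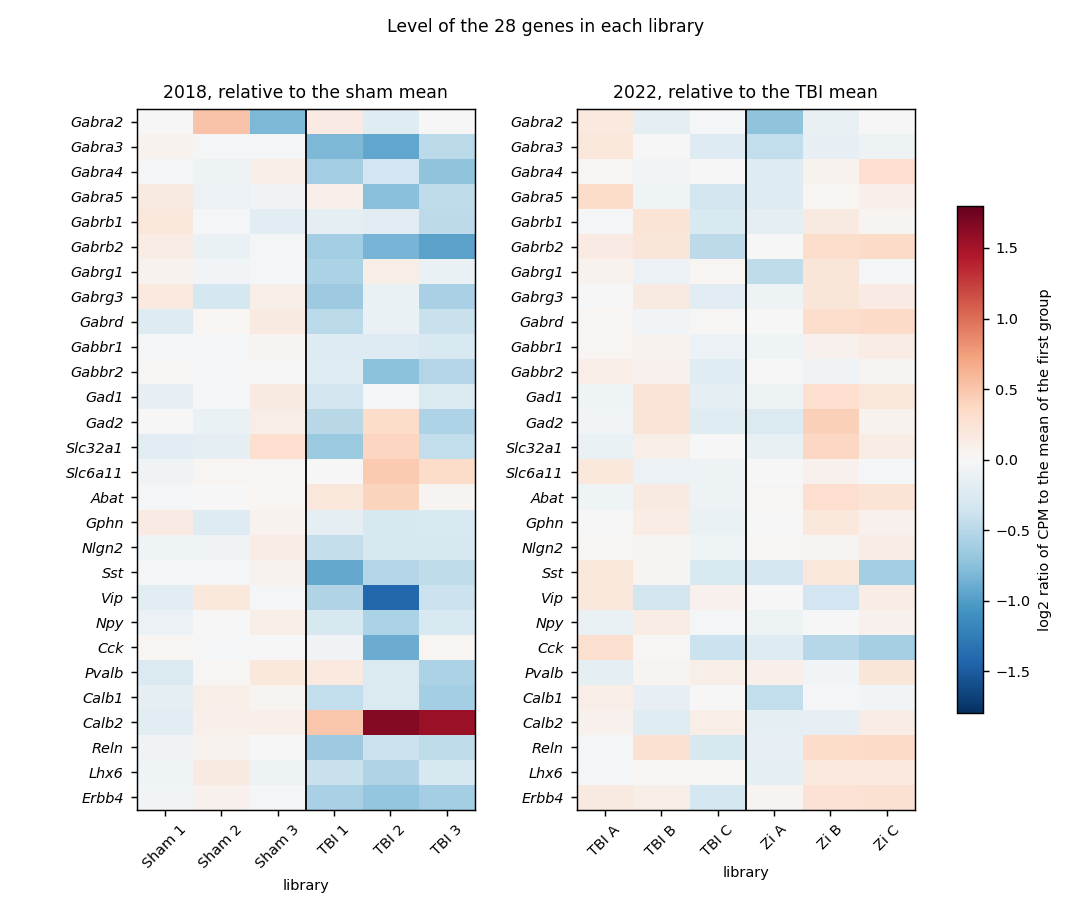
Each row is 1 of the 28 genes and each column a library, with colour giving the log2 ratio of its CPM to the mean of the sham libraries (2018) or of the TBI libraries (2022). In 2018 the 3 TBI columns are mostly blue with a red Calb2 row, while in 2022 no gene separates the zileuton columns from the TBI columns in CPM.

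Further interneuron genes from a fixed list gave 5 lower and 0 higher among 14 subclass genes, where 11.2% of all genes tested fell and 16.8% rose. Cnr1, the cannabinoid receptor found on terminals of cholecystokinin interneurons, fell with a log2 fold change of -0.59 (adjusted p = 0.00705, edgeR). Kcnc2, a potassium channel of fast-spiking cells, fell with -0.49 (adjusted p = 0.00109, edgeR).

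The tissue held more RNA of glial and immune genes after TBI, and the level of the 28 genes was therefore also set against the 12 pan-neuronal genes. With counts scaled to that list, the median log2 fold change of the 28 moved from -0.32 to 0.06 and that of all genes tested from 0.02 to 0.40. On that scale 2 of the 28 fell and 3 rose, where 0.839% of all genes tested fell and 38.4% rose. Gabrb2 had a log2 fold change of -0.43 (adjusted p = 0.0108, edgeR) and Gabra3 one of -0.35 (adjusted p = 0.0338, edgeR), so that both were lower relative to the pan-neuronal genes as well. Calb2 had 1.73 (adjusted p = 0.000801, edgeR). Slc6a11 and Abat passed as higher, with 0.67 (adjusted p = 0.00769) and 0.61 (adjusted p = 0.00493) in edgeR. The sign turned for 13 genes, among them Gabbr1 and Nlgn2, which had 0.14 and 0.05 on that scale. Gabra3 and Gabrb2 were the 2 genes of the 28 that passed in every alternative analysis and in all 6 fits that left out 1 library. Gabra4, Sst, Reln and Erbb4 passed in all 6 of those fits but not with the pan-neuronal scaling, where their log2 fold changes were between -0.26 and -0.11.

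**Figure D5:**
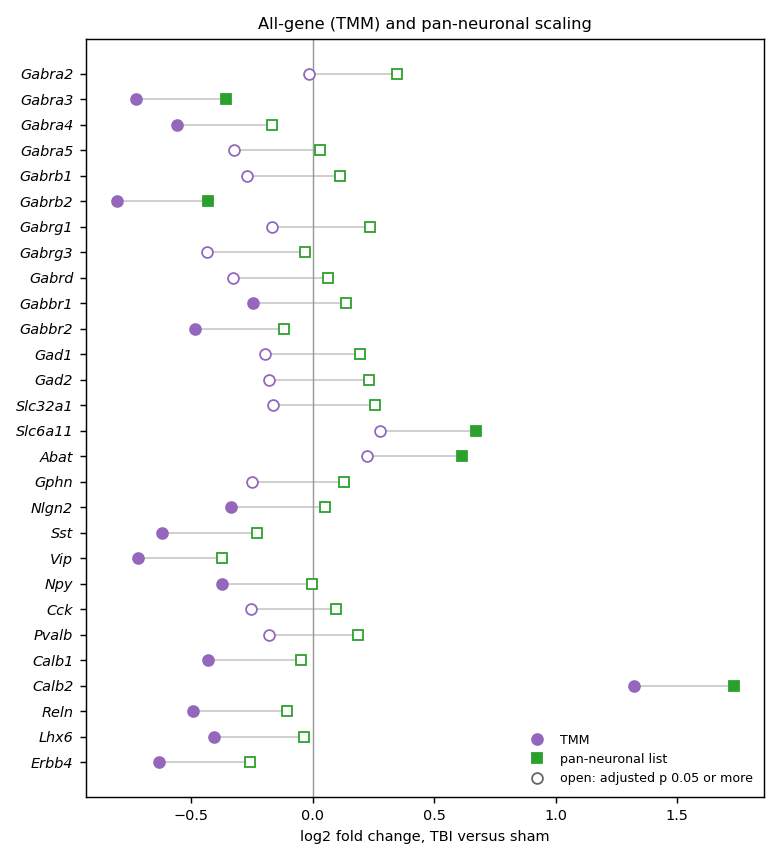
Log2 fold change of each of the 28 genes after TBI (horizontal axis) with counts scaled on all genes by TMM (circles) and on 12 pan-neuronal genes (squares); open symbols have an adjusted p-value of 0.05 or more. The squares lie to the right of the circles, with 2 filled squares left of 0 (Gabra3, -0.35, and Gabrb2, -0.43) and 3 right of it.

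The second comparison asked whether these genes differed in TBI mice treated with zileuton. After edgeR's test over 17363 genes, 0 of the 28 passed the adjusted threshold, as did 0% of all genes tested. DESeq2 and limma also called 0 of the 28. Of all genes, DESeq2 called 6 higher and 22 lower, and limma 0 and 4. Before adjustment, p in edgeR was under 0.05 for 1 lower gene, Cck, and 0 higher genes. This held for 3.90% of all genes tested as lower, 2.93% as higher and 6.83% in either direction. Fitted values were above 0 for 17 genes and below 0 for 11, from -0.43 to 0.23, with a median of 0.06 against 0.00 over all genes tested. In CPM the groups overlapped for all 28, whereas 6.50% of all genes tested lay apart as higher and 7.05% as lower. In the deposited TPM they overlapped for 27, and Gabrd was higher in every zileuton library. The share of all genes that lay apart in TPM was not taken, so this is no result about Gabrd. The 95% intervals of all 28 lay within a 2-fold change in either direction and those of 23 within a 1.5-fold change. Across the 28, interval bounds ran from -0.82 (Cck) to 0.64 (Gabrb2).

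Cck measured 112.5, 93.0 and 70.0 CPM in the TBI libraries A to C and 78.4, 64.5 and 60.8 CPM in the zileuton libraries A to C. TBI library C lay within the range of the zileuton libraries, and the log2 fold change was -0.43 (SE 0.170, unadjusted p = 0.0330, adjusted p = 0.713, edgeR). Gabrd measured 71.0, 67.2 and 70.4 CPM in TBI libraries and 69.2, 86.9 and 88.1 CPM in zileuton libraries. Zileuton library A lay among the TBI libraries in CPM, and the log2 fold change was 0.23 (SE 0.0999, adjusted p = 0.713, edgeR). In TPM that library, at 72.4, lay just above the highest TBI library, at 72.0. Calb2, which rose after TBI in 2018, measured 7.13, 5.80 and 7.31 CPM in TBI libraries and 5.95, 6.10 and 7.42 CPM in zileuton libraries. The groups overlapped throughout, and the log2 fold change was -0.06 with a 95% interval from -0.42 to 0.31.

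Of the 13 genes that fell after TBI, 7 had fitted values above 0 with zileuton and 6 below, and 0 passed. Gabrb2 measured 99.6, 104.4 and 64.6 CPM in TBI libraries and 89.7, 111.2 and 114.1 CPM in zileuton libraries. Its value above 0 went with 1 low control, TBI library C, and the log2 fold change was 0.23 (SE 0.178, adjusted p = 0.777, edgeR). It was 0.04 in the fit without TBI library C. Gabra3 measured 126.7, 109.9 and 94.2 CPM in TBI libraries and 81.1, 99.4 and 103.8 CPM in zileuton libraries. The groups overlapped, and the log2 fold change was -0.22 (SE 0.130, adjusted p = 0.729, edgeR). Sst measured 171.4, 154.5 and 123.7 CPM in TBI libraries and 121.7, 172.6 and 98.4 CPM in zileuton libraries. Zileuton library B was the highest of all 6, and the log2 fold change was -0.20 with an interval from -0.66 to 0.27. The genes of GABA synthesis and clearance all had fitted values above 0 in this comparison, from 0.01 for Slc6a11 to 0.19 for Abat. Gad1 measured 313.2, 386.2 and 291.3 CPM in TBI libraries and 308.9, 408.3 and 381.2 CPM in zileuton libraries. Its groups overlapped, with zileuton library B the highest. The striatal genes summed to 1096, 1437 and 1295 TPM in TBI libraries and 1072, 1848 and 1815 TPM in zileuton libraries. Choroid plexus genes summed to 11.2, 807 and 1717 TPM in TBI and 2673, 2235 and 19.2 TPM in zileuton libraries. Oligodendrocyte genes summed to 3883 to 8023 TPM in TBI and 8205 to 8581 TPM in zileuton libraries, without overlap. Of these marker genes 0 passed, and their part in the values above was not tested.

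Within the sum over the 9 GABA-A subunit genes, in TPM (transcript abundance scaled to the same total in every library), Gabra3 made up 20.6, 19.8 and 19.1% in TBI libraries and 16.9, 16.4 and 16.2% in zileuton libraries. Gabra2 made up 3.60, 2.74 and 3.31% in TBI libraries and 2.59, 2.68 and 2.72% in zileuton libraries. These were 2 of 9 subunits whose shares did not overlap, noticed after the values were seen, and 3 libraries against 3 cannot give an exact permutation p-value under 0.1. The level of neither gene differed by the test. The TPM of Gphn, 1150 to 1542 over all 6 libraries, rests on a short transcript length in the deposited table and was not compared with other genes.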

How the data were processed

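The 12 RNA-seq libraries were analysed, 3 per group. The authors deposited raw counts per gene and FPKM for 2018. For 2022 the deposited values are estimated counts, rounded here for testing, and TPM. The submitters' processing notes name HISAT2, featureCounts, Subread, DESeq2 and the build GRCm39, and versions are not given in the sources used here. Symbols were matched for 34808 of 35697 and 52081 of 55637 identifiers. Each batch was fitted alone in R 4.3.3 with edgeR 4.0.16 (TMM, filterByExpr, glmQLFit, glmQLFTest) and Benjamini-Hochberg adjustment over all genes tested, at 0.05. The SE is the log2 fold change divided by the square root of F. CPM are TMM-scaled.

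The genes named were all 28 members in 7 classes, Gfap and Cd68, and some rises and falls that passed in the other lists reported here. The rises so named, Kctd12 and Gabarap, need not be the largest among all listed genes. Results of some listed genes, and of the lists that hold them, are not reported here. Gabra3 and Gabrb2 shares, Kcnc2, Tcf7l2 and Prkcd were singled out after their values were seen. The members and lists were chosen with earlier results of these data known. The tests were repeated with size factors from DESeq2, library totals, scaling to pan-neuronal genes, DESeq2 1.42.0, no filter beyond 1 count, limma 3.58.1 on log2(value + 1) with a mean of at least 0.5, a two-sided equal-variance two-sample test on FPKM or TPM, removal of a length trend, a replicate block, and leaving out each library. Fits without the libraries with the highest striatal sums were added after the values were seen. All 6 columns of each batch were used. In 2022 the columns carry the numbers 2, 3 and 6, called A, B and C here. The length trend was a spline with 5 degrees of freedom. Plots used matplotlib 3.10.9 in Python 3.11.15. On simulated counts for sham and TBI (19171 genes), edgeR recovered 61.3% of 93 planted 2-fold changes, and for zileuton (17110 genes) 76.8% of 99. Of the genes called there, 7.9% and 6.1% held no planted change. Changes under 2-fold were not planted, so recovery of smaller changes is not known. The planted genes were drawn at random over all levels of expression, so these rates need not hold for the 28 genes.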

Additional observations from a re-analysis of the deposited data

How the results depend on the processing

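Of the 28 genes, 13 fell and 1 rose after TBI in the analysis reported, and counts of falls ran from 10 to 16 under DESeq2's size factors (13), library totals (10), DESeq2 (15), no filter (14), limma (10), removal of the length trend (16) and the block (10). They were 2 under the pan-neuronal scaling, 4 under the equal-variance test on FPKM, and 8 without the libraries with the highest striatal sums (sham 3 and TBI 2). Falls among all genes moved too, from 2193 in the analysis reported to 2494 (DESeq2's size factors), 1715 (library totals), 2793 (DESeq2) and 2267 (no filter). They were 1566 under limma, 5139 with the length trend removed and 1637 with the block. The pan-neuronal scaling gave 164, the equal-variance test 864, and the fit without sham 3 and TBI 2 975. Rises among the 28 were 3 under the pan-neuronal scaling, 0 under the equal-variance test and 1 otherwise. Among all genes, 7502 rose under the pan-neuronal scaling and 1761 under the equal-variance test, against 3286 in the analysis reported. Leaving out 1 library gave 7 (without sham 3) to 16 (without TBI 2) falls among the 28 and 1 to 2 rises (2 without TBI 1 and without TBI 3). Of all genes, 1446 fell without sham 3 and 1803 without TBI 2, while 2992 rose without TBI 1 and 2961 without TBI 3. Removing the length trend moved the median of all genes tested to -0.18 and the pan-neuronal scaling moved it to 0.40, and all counts above hold relative to their own scale. Same-numbered libraries did not deviate together (r from -0.09 to -0.02 in 2018 and from -0.28 to 0.06 in 2022). Pairs with different numbers ran from -0.10 to 0.13 in 2018 and from -0.07 to 0.31 in 2022. With 3 libraries per group this check cannot exclude a pairing that the labels do not state. With the replicate block 10 of the 28 genes fell and 1 rose after TBI. With zileuton 0 of the 28 passed and 1 had a lower value at an unadjusted p-value under 0.05, against 3.90% of all genes tested without the block.

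Under the pan-neuronal scaling the log2 fold change after TBI turned positive for Gabra2 (0.35), Gabra5 (0.030), Gabrb1 (0.11), Gabrg1 (0.23), Gabrd (0.065), Gabbr1 (0.14), Gad1 (0.20), Gad2 (0.23), Slc32a1 (0.26), Gphn (0.13), Nlgn2 (0.050), Cck (0.10) and Pvalb (0.19), by the construction of that scale. Gabra2 also turned under library totals (0.036), limma (0.11), the equal-variance test (0.033) and the replicate block (0.074). Leaving out 1 library, Gabra2 ran from -0.31 to 0.31 and Slc32a1 from -0.55 to 0.033.

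With zileuton, 0 of the 28 genes passed the adjusted threshold under any alternative run. Of all genes tested, DESeq2 called 6 higher and 22 lower, the run with no filter 1 and 3, and limma 0 and 4. The other runs called 0 of all genes. Genes above 0 at an unadjusted p-value under 0.05 numbered 1 under DESeq2's size factors, library totals, no filter and limma, 2 with the length trend removed, and 0 to 3 when 1 library was left out. Those below 0 numbered 0 under limma, the equal-variance test and the length trend removed, and 0 to 2 when 1 library was left out. In the analysis reported, 2.93% of all genes tested were above 0 at that level and 3.90% below. These shares were not taken for the other runs, so the counts cannot be read as a result about the 28 genes. Small values changed sign, and the cause was not tested. These were Slc6a11 under library totals (-1.32e-06), Gabbr2 under the pan-neuronal scaling (0.0031), limma (0.048) and the equal-variance test (0.036), Gabra5 under limma (0.014), Vip and Npy under limma (0.048 and 0.10) and under the equal-variance test (0.044 and 0.10). With the length trend removed Gabrb1 (-0.16), Gabrg3 (-0.040), Slc6a11 (-0.041), Nlgn2 (-0.013), Vip (0.019), Npy (0.19) and Calb2 (0.023) did so. Leaving out 1 library gave ranges of -0.16 to 0.00386 for Calb2, -0.00235 to 0.11 for Gabbr1, -0.11 to 0.055 for Gabbr2, -0.070 to 0.19 for Gabra4, -0.17 to 0.16 for Gabra5, -0.11 to 0.16 for Gabrb1, -0.22 to 0.10 for Gabrg1, -0.092 to 0.26 for Gad2, -0.060 to 0.067 for Npy, -0.039 to 0.11 for Slc6a11 and -0.20 to 0.068 for Vip. Depth was lowest for Calb2, at 181 counts in a library of 2022.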
